A study of Mus musculus with 40 samples.

Results

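The genes described here are 10 members of the Polycomb group, chosen by name: Suz12, Ezh2, Eed, Jarid2 and Mtf2 of Polycomb repressive complex 2 (PRC2), and Phc1, Rnf2, Ring1, Bmi1 and Cbx7 of Polycomb repressive complex 1 (PRC1). Every gene probe whose current or older symbol is one of these was used. The late arrays held 7 of the 10 genes, with 7 probes among 20727 genes or unnamed transcripts. The early arrays held all 10 with 13 probes among 39003, and the Nanog arrays all 10 with 13 probes among 37680. Mtf2, Bmi1 and Cbx7 were not analysed here on the late arrays. The rule that picks the probes uses no measured value.

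PRC2 places methyl groups on lysine 27 of histone H3, and EZH2 is the enzyme that does it. EED and SUZ12 are the other core subunits that the enzyme needs, while JARID2 and MTF2 are accessory subunits that help to bring the complex to its sites. Canonical PRC1 reads that mark through a CBX protein such as CBX7, and its RING1 or RNF2 subunit attaches ubiquitin to histone H2A, with a partner such as BMI1, while PHC proteins link complexes to each other. In embryonic stem (ES) cells both complexes are known for holding developmental regulators silent.

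RNA was measured on 40 2-colour arrays, with the sample in Cy3 and Universal Mouse Reference RNA in Cy5, and every value below is a log2 ratio of sample to that reference unless it is called a change. ZHBTc4 ES cells (129/Ola) lack working endogenous Pou5f1 alleles and live on a Pou5f1 transgene that tetracycline (Tet) turns off. On the late arrays they were sampled before Tet (0 hr) and daily from 24 to 120 hr after it (3 arrays a time). On the early arrays they were sampled before and 3, 6, 12 or 24 hr after Tet (2 a time, labelled Oct3/4 KO, transgenic and knock down). The Nanog experiment had 1 array of each of 4 lines in each of 3 media (LIF, no LIF, and LIF with 1 µM retinoic acid, RA, for 3 days). Its lines were a clone labelled integrated (Nanog/EF1#6 in a pEF6/IRES neo plasmid, 129SvEv-Tac) with the parental line ES 129.3, and a clone labelled episomal (#3 with a pPYFloxed vector, 129Sv) with the parental line MG1.19. Each transgenic line is 1 clone, and nothing states that arrays of a time came from separate cultures, so p-values measure the spread between arrays, which may be technical.

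Pou5f1 fell by 2.18 on the log2 scale at 24 hr on the late arrays. On the early arrays 1 Pou5f1 probe fell by 2.79 at 24 hr, whereas the brighter one changed by -0.55 and stayed under 1.5-fold. Against its parental line the Nanog probe was 0.75 higher in the clone labelled integrated and -0.57 in the clone labelled episomal, in all 3 media each, and neither difference passed the test. Whether this probe reads the transgene was not tested, so on these arrays a direction drawn from the clone labelled episomal rests on its label. Of the trophectoderm markers, 6 of 7 rose on the late arrays, and their mean log2 ratio went from between -0.99 and -0.55 at 0 hr to between 2.55 and 2.83 at 120 hr. The ES cell markers fell in 5 of 6 genes, among them Pou5f1 itself, whose transgene Tet turns off. Esrrb of that list was above the negative controls on 0 of 18 late arrays. Of the fibroblast markers 1 of 5 rose, with a mean log2 ratio between -2.37 and -2.05 on all late arrays and Thy1 above the negative controls on 0 of 18. In these bulk samples fewer cells of a type and less RNA per cell cannot be told apart.

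Every spot of every member was brighter than the 95th percentile of the negative controls and well above background on all 40 arrays, and none was saturated. Some members were dim, however. At 0 hr Ring1 had a mean Cy3 of 788 on the late arrays, where that percentile was 653 on array 1. Bmi1 had 460 at 0 hr on the early arrays, where it was 408 on array 2. On the late arrays the percentile lay between 627 and 653 at 0 hr and between 506 and 571 at all later times. The part of this difference in the late changes of dim probes was not tested. Scanner outlier flags removed 2 member spots: Eed at 48 hr on late array 2 and Jarid2 at 0 hr on late array 3.

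The probes are 60 bases long, and the first 30 bases are given for those on which the results turn. Probe 1 of Suz12 and Phc1 and the probes of Ezh2, Eed and Jarid2 had the same sequence on all 3 designs, whereas probe 2 of Phc1 and of Mtf2 was used on the early and Nanog arrays alone.
Suz12 probe 1: tgtgacatccttcttgattagaatatccat
Ezh2: ttgctaatcattcagtaaatccaaactgct
Eed: aatggaggatgatatagataaaattaaacc
Jarid2: ggaataaaaaagggaaactgttttcacaag
Phc1 probe 1: cacacatcattgaaggctttgttatccagg
Phc1 probe 2: aacaggagcgtgtggggctgaggtcaggac
Mtf2 probe 2: gggtagatatagcacacctatgcctttaca
The probes of Suz12 (probe 1) and Jarid2 were named through the study's own gene tables, and the others through accessions.

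The late arrays followed the members over 5 days of Pou5f1 loss. All 4 PRC2 genes measured fell, Jarid2 by the most and Ezh2 last, and of the 3 PRC1 genes Phc1 fell while Rnf2 and Ring1 passed no test. A gene was called where limma's adjusted p over all probes was at most 0.05 and the change at least 1.5-fold. By this rule 5 of 7 members fell at some time and 0 rose, against 10.7% of all genes that fell and 14.6% that rose. The calls grew with time: 1 of 7 at 24 hr (3.63% of all genes fell), 3 of 7 at 48 hr (4.81%), and 5 of 7 each on day 3 (72 hr, 6.39%), day 4 (96 hr, 7.26%) and day 5 (120 hr, 8.53%). In the authors' normalized values Suz12 and Ezh2 were under 1.5-fold at 72 and 96 hr, leaving 3 of 7 at each of these times. By 120 hr the median member fell by 1.00 on the log2 scale, with a median of 0.00 over all genes.

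**Figure D1:**
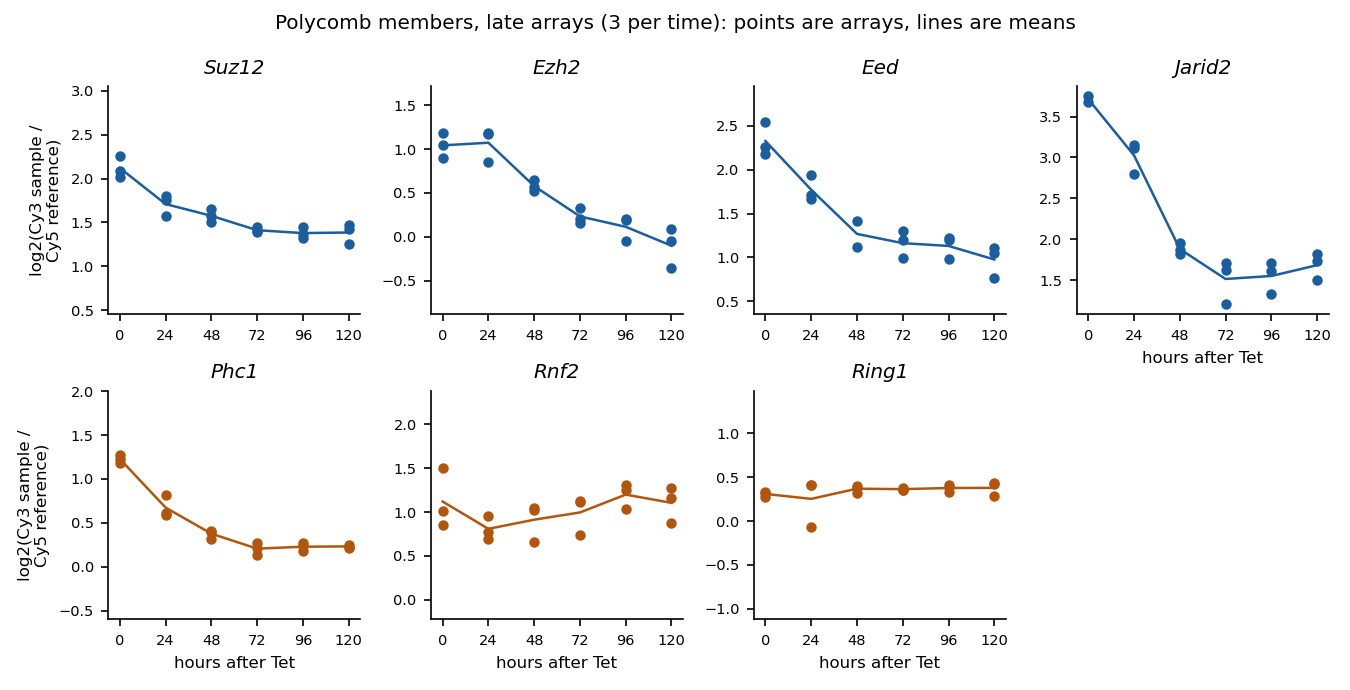
Log2 ratio of sample to reference RNA (y) against hours after Tet (x) for the 7 members on the late arrays. Points are arrays (3 per time, 2 where a spot was flagged), lines join the means, PRC2 genes are blue and PRC1 genes orange, and each panel has its own y range. Jarid2 drops from 3.68 and 3.75 to at most 1.82 at 120 hr, whereas Rnf2 and Ring1 stay near their starting level.

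Jarid2, the accessory subunit, stood highest over the reference at the start. Its log2 ratios before Tet were 3.68 and 3.75, followed by 3.12, 3.15 and 2.80 after 1 day and 1.87, 1.95 and 1.82 after 48 hr. They reached 1.21, 1.62 and 1.71 by 72 hr and stood at 1.51, 1.73 and 1.82 by 120 hr. All arrays after Tet lay below both arrays at 0 hr, and no array from 48 hr on reached any at 24 hr. The change was -0.69 (SE 0.15) at 24 hr, already past the test (limma adjusted p = 0.00186), and reached -2.20 (SE 0.15, 4.58-fold, limma adjusted p = 4.28e-09) at 72 hr. The step from 24 to 48 hr alone was -1.14 (SE 0.13). Without the third array at 24 hr the change at that time was -0.58, under 1.5-fold.

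Eed, the core subunit that binds the methylated histone, started at 2.18, 2.26 and 2.54. Its log2 ratios were 1.71, 1.94 and 1.67 after 24 hr, 1.12 and 1.42 after 48 hr, and by 120 hr 0.77, 1.11 and 1.05. Every array after 0 hr lay below every array at 0 hr. Its change was -0.56 (SE 0.12) at 24 hr, short of 1.5-fold, -1.06 (SE 0.14) at 48 hr and -1.35 (SE 0.12, 2.55-fold, limma adjusted p = 1.29e-07) at 120 hr. Most of that fall took place by 48 hr, and none of the later single steps passed the test. The authors' normalized values gave a smaller fall of -0.84 by 120 hr, also called.

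Ezh2, the methyltransferase, had no change past the test after the first day and fell later. It stood at 1.04, 0.90 and 1.18 before Tet and at 1.17, 1.188 and 0.86 after 24 hr, so that both groups overlapped. By 72 hr the arrays read 0.16, 0.33 and 0.21, and by 120 hr -0.35, 0.09 and -0.05, below every array at 0 hr. The change was 0.03 (SE 0.11, 95% interval -0.21 to 0.27) at 24 hr, -0.46 at 48 hr, -0.81 at 72 hr and -1.14 (SE 0.11, 2.21-fold, limma adjusted p = 1.86e-07) at 120 hr. The authors' normalized values gave -0.51 at 72 hr and -0.57 at 96 hr, both under 1.5-fold, and -0.75 by 120 hr, still called. The mean log2 ratio of 11 proliferation genes went from between 0.75 and 0.98 at 0 hr, and between 0.90 and 1.23 at 24 hr, to between -0.03 and 0.20 at 120 hr, and 8 of the 11 fell at some time while 3 rose, with 1 gene in both counts. Its part in the fall of Ezh2 was not tested.

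Suz12, the core subunit that holds the complex together, fell least of the PRC2 genes from 72 hr on. Its log2 ratios of 2.09, 2.02 and 2.25 before Tet became 1.75, 1.80 and 1.58 after 24 hr and 1.25, 1.47 and 1.43 by 120 hr. No array after Tet reached any array at 0 hr. The change of -0.41 (SE 0.07) at 24 hr was under 1.5-fold, and that of -0.73 (SE 0.07, 1.66-fold) at 120 hr passed it (limma adjusted p = 2.7e-07). With the values the authors normalized it was -0.36 at 120 hr, and no time reached 1.5-fold.

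Phc1, a linker subunit of PRC1, read 1.23, 1.18 and 1.27 before Tet, 0.82, 0.59 and 0.61 after 1 day, 0.32, 0.41 and 0.40 after 48 hr, and finally 0.23, 0.25 and 0.22 (120 hr). Each of the groups at 0, 24 and 48 hr was thus clear of the next. The change was -0.55 (SE 0.06) at 24 hr and -0.85 (SE 0.06) at 48 hr, and by 120 hr the gene fell by 1.00 (SE 0.06, 1.99-fold, limma adjusted p = 2.89e-10). None of its steps after 48 hr passed the test. Phc1 was dim at 120 hr, with a mean Cy3 of 596, where the 95th percentile of the negative controls was 511 on array 2. Its later ratios may therefore understate the fall.

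The ubiquitin ligase subunits passed no test at any late time. Rnf2 read 1.01, 0.85 and 1.499 at 0 hr and 0.87, 1.28 and 1.16 at 120 hr, a change of -0.01 with a 95% interval of -0.35 to 0.32. Ring1 read 0.33, 0.32 and 0.28 at 0 hr and 0.29, 0.42 and 0.43 at 120 hr, a change of 0.07 with an interval of -0.13 to 0.26. Both intervals at 120 hr exclude a fall of 1.5-fold in these ratios. At 24 hr the interval of Rnf2 (-0.65 to 0.03) does not. Ring1 lay close to the negative controls, so its ratios may understate a change of its RNA.

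At 120 hr every array lay below every array at 0 hr for 5 of 7 members, as it did for 25.7% of all genes. Jarid2 then stood at percentile 0.637 of all changes, Eed at 1.98, Ezh2 at 2.85, Phc1 at 3.79 and Suz12 at 6.18, counted from the largest fall. The interval of Jarid2 at 120 hr (-2.34 to -1.72) lay below those of the other 4, and the interval of Suz12 (-0.89 to -0.58) lay above those of Jarid2, Eed (-1.61 to -1.09) and Ezh2 (-1.38 to -0.90). Eed and Ezh2 overlapped each other, and so did Phc1 (-1.12 to -0.87) with Ezh2, Eed and Suz12.

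**Figure D2:**
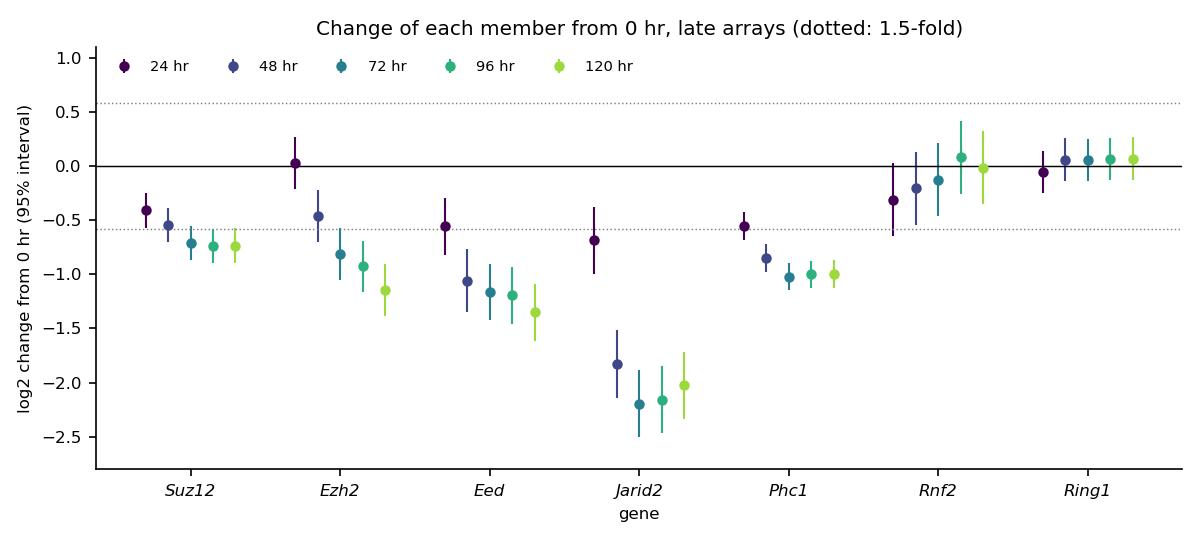
Log2 change from 0 hr (y) with its 95% interval from limma for each late member (x) on each of 5 days after Tet (colours, 24 to 120 hr). Dotted lines mark 1.5-fold. Jarid2 is lowest from 48 hr on, Ezh2 leaves 0 only after 24 hr, and the intervals of Ring1 and Rnf2 reach 0 at every time.

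Over the 5 late times, the named gene whose changes lay nearest to those of each member was found by the root mean square difference over 11381 other genes, with nothing implied of shared control. For Jarid2 it was Pfkp (0.17 on the log2 scale), for Eed Aire (0.06), for Ezh2 Ecsit (0.06), for Phc1 Tyw3 (0.05) and for Suz12 Pcsk1 (0.02). Pfkp, a glycolytic enzyme gene, had changes of -0.48 (24 hr) and -2.07 (48 hr), beside -0.69 and -1.83 for Jarid2. None of these nearest genes was another Polycomb gene.

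Other Polycomb genes moved the other way more often than not. Of 20 further members of the group measured on the late arrays, 11 rose, 2 fell and 7 passed no test. Of all genes 14.6% rose and 10.7% fell. The median change of these 20 at 120 hr was 0.64. Rbbp7, a histone-binding subunit that PRC2 shares with other complexes, read -0.33 and -0.09 at 0 hr (1 spot was flagged) and 2.34, 2.45 and 2.50 at 120 hr, a change of 2.64 (SE 0.10). Yaf2, an alternative PRC1 subunit, went from -3.29, -3.33 and -3.27 to -1.14, -1.16 and -1.16, a change of 2.15 (SE 0.06) at 120 hr.

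Paralogs of the members differed from them in these values. Phc2 read -0.02, -0.01 and 0.19 at 0 hr and 1.60, 1.79 and 1.78 at 120 hr, a change of 1.67 (SE 0.10), at the time when Phc1 fell by 1.00. Phc3, which was picked after its values were seen, rose by 0.97 (SE 0.09). Ezh1, likewise picked as the paralog of Ezh2, changed by 0.17 (SE 0.06) and was not called. Among the CBX readers of the mark, Cbx8 rose by 1.39 (SE 0.07) and Cbx6 fell, from -1.11, -1.17 and -1.12 to -2.44, -2.58 and -2.65, a change of -1.43 (SE 0.07). Kdm2b, which recruits a variant PRC1 to CpG islands, rose by 1.33 (SE 0.08). Under every alternative with these genes measured, these changes at 120 hr of Rbbp7, Yaf2, Phc2, Cbx8, Cbx6 and Kdm2b kept their direction and call.

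Trithorax proteins and H3K27 demethylases act against Polycomb silencing. Of 9 such genes on the late arrays 5 fell, 2 rose and 2 passed no test, against 10.7% of all genes that fell and 14.6% that rose. Ash2l, a core subunit of the H3K4 methyltransferase complexes, went from 2.12, 1.91 and 2.21 to 0.45, 0.65 and 0.74 at 120 hr, and its change was largest at 72 hr (-1.49, SE 0.11). Its partners Dpy30 and Wdr5 fell by 1.34 (SE 0.08) and 0.87 (SE 0.07) at 120 hr. The methyltransferase gene Kmt2c fell by 0.98 (SE 0.09) at 72 hr. Men1 rose by 0.79 (SE 0.05) and Ash1l by 0.60 (SE 0.13) at 120 hr, with the call of Ash1l lost under 5 of 25 alternatives and that of Men1 under 1.

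**Figure D3:**
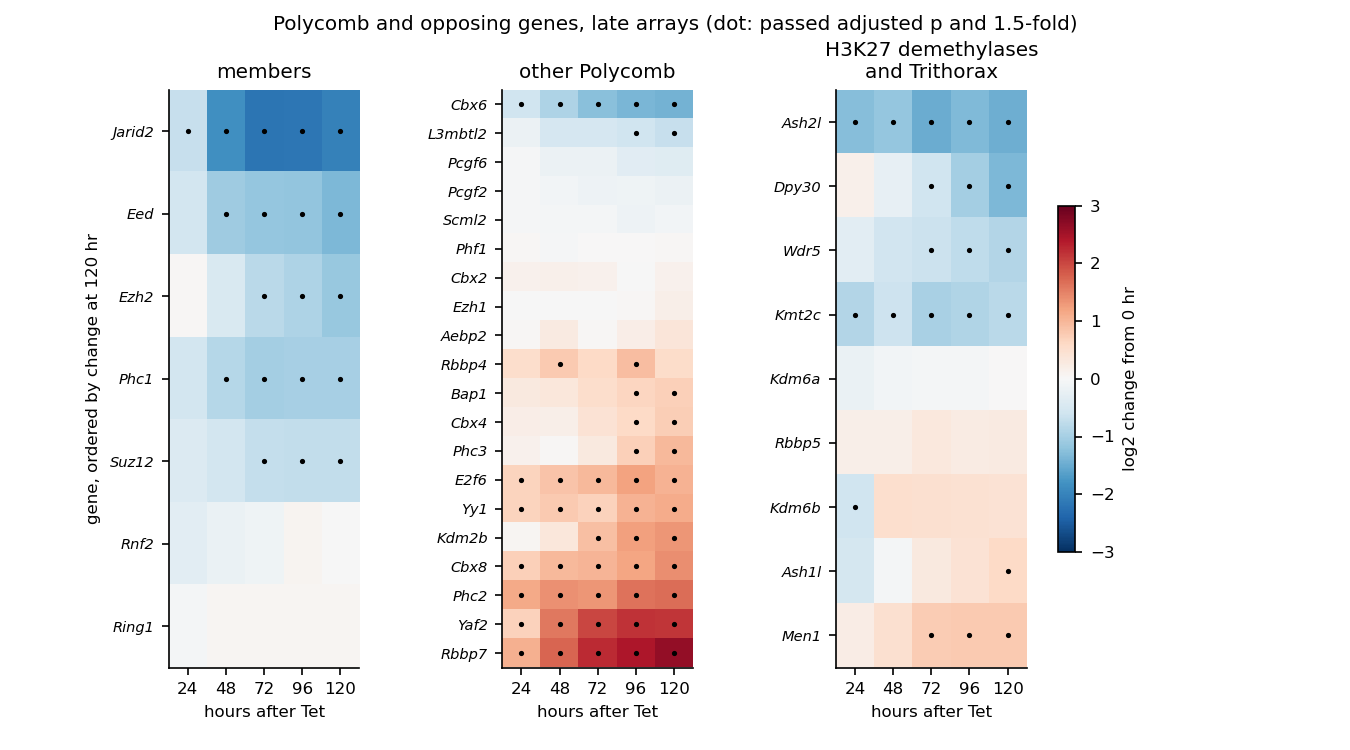
Log2 change from 0 hr (colour, blue lower and red higher) at each late time (x, hours after Tet) for the members, the other Polycomb genes and the H3K27 demethylases and Trithorax genes (y, ordered by the change at 120 hr). Dots mark changes with a limma adjusted p of at most 0.05 and 1.5-fold. Members are blue or pale, whereas Rbbp7 (2.64), Yaf2 (2.15) and Phc2 (1.67) lead a red block at 120 hr among the other Polycomb genes.

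The early arrays asked which of these changes began within the first day. Eed, Phc1 and Suz12 fell, none of the 10 members rose, and the means of Ezh2 and Rnf2 stayed within 0.21 of 0 hr at all times. The Ezh2 arrays at 6 hr lay apart, at 0.78 and 1.53. The interval of its change there (-0.27 to 0.68) leaves a rise of 1.5-fold possible. By the same rule 0 of 10 members were called at 3 and at 6 hr, where 1 each had an unadjusted p under 0.05, 1 of 10 fell at 12 hr (0.382% of all genes) and 3 of 10 at 24 hr (1.92%). At some early time 3 of 10 fell and 0 rose, against 1.99% and 7.43% of all genes. For 5 of 10 members both arrays at 24 hr lay below both at 0 hr, but so they did for 37.5% of all genes, and with 2 arrays a group this separates little.

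The early values carry a technical trend: the index of Cy5 bleaching (mean log10 Cy5 signal of the 100 genes that varied most) was 3.29 and 3.43 at 0 hr and 2.94 and 2.75 at 24 hr. When Cy5 bleaching was corrected 5 members fell, with Cy3 alone 6, and with the F test of the study's methods 0, where that test called 0 of 38995 genes and 3 members had an unadjusted p under 0.05. With scaling between arrays 7 members fell, among them Rnf2 (-0.59) and Cbx7 (-1.87) at 24 hr, and Bmi1 turned from -0.24 to 0.10, not called in either. That scaling multiplies all log ratios of an array by a common factor. A gene whose ratio lies far from 0, such as Cbx7, therefore moves with that factor.

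Eed, the only member whose brightest probe was called at 12 hr, read 2.36 and 2.59 before Tet, then 2.36 and 2.35 (3 hr), 2.21 and 2.23 (6 hr), 1.79 and 1.65 (12 hr), and lastly 1.28 and 1.54 (24 hr). From 6 hr on both arrays lay below both at 0 hr. The change was -0.75 (SE 0.12, limma adjusted p = 0.0237) at 12 hr and -1.07 (SE 0.12, 2.10-fold, limma adjusted p = 0.000671) at 24 hr. The call at 12 hr was lost under 6 of 18 alternatives, among them without either array at 0 hr (adjusted p = 0.0922 and 0.188), either array at 3 hr (both 0.0611) or the second at 12 hr (0.22).

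Phc1 was read by 2 probes that fell together. Probe 2, the brighter one, went from 2.32 and 2.59 before Tet to 1.73 and 1.99 (12 hr) and 1.39 and 1.82 (24 hr), a change of -0.85 (SE 0.16, limma adjusted p = 0.00789). Probe 1 went from 1.79 and 1.90 to 1.33 and 1.11, and then to 0.93 and 0.82, a change of -0.97 (SE 0.11, limma adjusted p = 0.0007). At 12 hr probe 1 was already called (-0.63, limma adjusted p = 0.036), and probe 2 (-0.59, limma adjusted p = 0.122) was not. Phc1 was called at 12 hr under 6 alternatives, the replicate block among them (adjusted p = 0.0366). Of these 6, 1 used the median of both probes in place of probe 2. Without the second array at 0 hr the adjusted p of probe 2 at 24 hr was 0.0683.

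Suz12 also fell on both of its probes. Probe 2 read 1.28 and 1.26 before Tet, 0.91 and 1.00 (3 hr), and lastly 0.59 and 0.27 (24 hr), a change of -0.84 (SE 0.12, limma adjusted p = 0.00212). Probe 1 read 1.39 and 1.504 before Tet and 0.66 on both arrays at 24 hr, a change of -0.79 (SE 0.09). Neither probe was called before 24 hr.

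Jarid2 moved late within the first day. It read 3.18 and 3.31 before Tet, 3.37 and 3.40 (6 hr), 3.32 and 3.19 (12 hr), and only then 2.76 and 2.70 (24 hr). The change of -0.52 (SE 0.10, limma adjusted p = 0.00968) at 24 hr was under 1.5-fold, and the step from 12 to 24 hr was -0.53 (SE 0.10, limma adjusted p = 0.0347). It was called under 4 alternatives at 24 hr, as -0.60 with bleaching corrected and -0.80 with the values the authors normalized.

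The probes of Mtf2, the other accessory subunit, gave different calls. Probe 1 fell from 3.01 and 2.99 to 2.25 and 2.28 at 24 hr, a change of -0.73 (SE 0.11, limma adjusted p = 0.00293). Probe 2 went from 3.35 and 3.16 to 2.46 and 3.20, so that its arrays at 24 hr lay 0.74 apart, and its change of -0.42 (SE 0.23) was not called. Without the second array at 24 hr it was -0.79 and called (adjusted p = 0.045), as it was with bleaching corrected (-0.84), with Cy3 alone (-0.75) and with scaling between arrays (-2.01). Cbx7 was as far apart at 24 hr, with 2.69 and 3.70 after 3.36 on both arrays at 0 hr, and its interval of -0.84 to 0.51 leaves a fall of 1.5-fold possible.

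Of the other members, Ring1 read -0.33 and -0.26 before Tet and -0.06 and 0.19 after 24 hr, a change of 0.36 (limma adjusted p = 0.0355) under 1.5-fold. Bmi1 went from -0.55 and -0.62 to -0.94 and -0.71, a change of -0.24 with an interval of -0.50 to 0.01. Ezh2 went from 0.99 and 0.90 to 1.00 and 0.92, a change of 0.02 with an interval of -0.46 to 0.49. Of 25 other Polycomb genes 6 rose and 3 fell at 24 hr, with a median change of 0.06 beside -0.06 over all genes. Of all 39003 genes 2697 rose and 747 fell at 24 hr. Of the trophectoderm markers 5 of 8 rose at this time, their mean log2 ratio going from between 0.16 and 0.28 to between 0.99 and 1.13. Of the fibroblast markers 2 of 5 rose (median 0.39), and the part of either list in the members' changes was not tested.

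**Figure D4:**
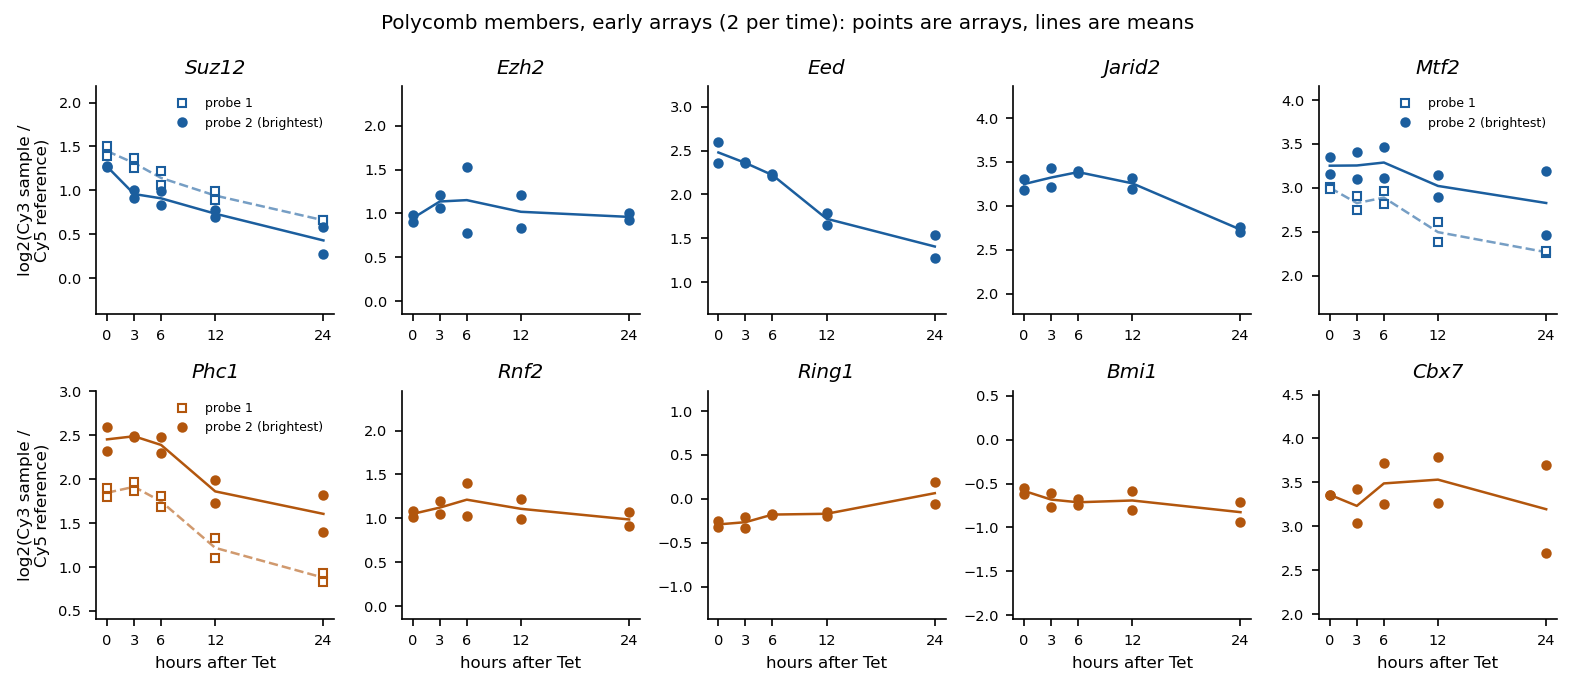
Log2 ratio of sample to reference RNA (y) against hours after Tet (x) for the 10 members on the early arrays. Points are arrays (2 per time), lines join the means, filled points are the brightest probe and open squares the other one, and PRC2 genes are blue and PRC1 genes orange. Eed, Phc1, Suz12, Jarid2, Bmi1 and probe 1 of Mtf2 have both arrays at 24 hr below both at 0 hr. The arrays of Cbx7 spread to 2.69 and 3.70 at 24 hr.

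The 24 hr change was measured in both experiments by identical probes, which allowed a test of the difference for 7 members. The difference of late minus early was 0.41 for Phc1 probe 1 (SE 0.13, limma adjusted p = 0.0486), with -0.55 on the late and -0.97 on the early arrays, so that its early fall was larger but by less than 1.5-fold. For Eed it was 0.52 (SE 0.19, limma adjusted p = 0.0785) and for Suz12 probe 1 0.38 (SE 0.14, limma adjusted p = 0.0815). For Jarid2 it was -0.17 with an interval of -0.54 to 0.20, and for Ezh2 0.01 with an interval of -0.35 to 0.38. By adjusted p and 1.5-fold 0 of 7 members were called, 3 having an unadjusted p under 0.05, whereas 14.4% of 18868 genes were called in either direction. With the values the authors normalized 2 members, Eed (0.73) and Suz12 (0.77), were called. The experiment, the array design and the trend in Cy5 cannot be told apart here.

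In the Nanog experiment the members were compared in lines with a Nanog transgene and their parental lines, matched by medium. Over both clones no member passed the test, but in the clone labelled integrated Mtf2, Eed and Jarid2 were higher than in its parental line. For both clones together 0 of 10 members were called by limma, with 4 of 10 higher at an unadjusted p under 0.05, and 0.00531% of all genes were called. Rnf2 was among these 4, higher in every pair, by 0.34 (SE 0.07, limma adjusted p = 0.0858). For the clone labelled integrated 3 of 10 rose (1.70% of all genes) and 0 fell (2.43%). For the clone labelled episomal 0 of 10 were called by limma, 2 being higher at an unadjusted p under 0.05, and 0% of all genes were called. Each clone was set against a parental line of its own background, and each construct is represented by 1 clone.

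Mtf2 had the largest difference of all members. Probe 2 read 4.06 with LIF, 3.36 without and 4.11 with RA in the clone labelled integrated, and 3.05, 2.32 and 2.70 in ES 129.3. The clone was higher in all 3 media, by 1.15 (SE 0.10, 2.22-fold, limma adjusted p = 0.0112), and probe 1 gave 1.16 (SE 0.08). In the clone labelled episomal probe 2 read 3.26, 2.57 and 2.32, and in MG1.19 3.15, 2.31 and 2.10, a difference of 0.19 (SE 0.06) that was not called.

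Eed read 2.86 with LIF, 1.83 without and 1.95 with RA in the clone labelled integrated, and 2.01, 1.18 and 1.193 in ES 129.3. It was higher by 0.75 (SE 0.06, 1.68-fold, limma adjusted p = 0.01). Jarid2 read 3.25, 3.01 and 2.65 in the clone and 2.86, 2.02 and 1.99 in ES 129.3, a difference of 0.68 (SE 0.12, limma adjusted p = 0.0467). The call of Jarid2 was lost under 6 alternatives, and without the pair in LIF none of Mtf2, Eed and Jarid2 was called (adjusted p = 0.0564, 0.0577 and 0.0803). In the same contrast 1 of 6 ES cell markers rose (median 0.56). Of the trophectoderm markers 2 of 8 fell (median -0.26), and of the fibroblast markers 1 of 5 fell (median -0.64). The 5 primitive endoderm markers measured lay between 0.07 and 0.77 (median 0.53), and 0 of 5 were called. The part of these lists in the differences of Mtf2, Eed and Jarid2 was not tested.

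The difference between both clones, which cannot be told apart from their backgrounds, parental lines and days of extraction, was tested as well, and 1 of 10 members passed, with 0.823% of all genes called in either direction. The difference of integrated minus episomal was 0.96 for Mtf2 probe 2 (SE 0.12, limma adjusted p = 0.0326) and 0.95 for probe 1 (SE 0.11, limma adjusted p = 0.0271). With the values the authors normalized it was 0.95 for probe 2 and lost the call (adjusted p = 0.0542). For Eed the difference was 0.57 (limma adjusted p = 0.0661) and for Jarid2 0.73 (limma adjusted p = 0.174). The Phc1 probes disagreed in this experiment: in LIF the clone labelled integrated differed from ES 129.3 by 1.04 on probe 1 and by -0.21 on probe 2.

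**Figure D5:**
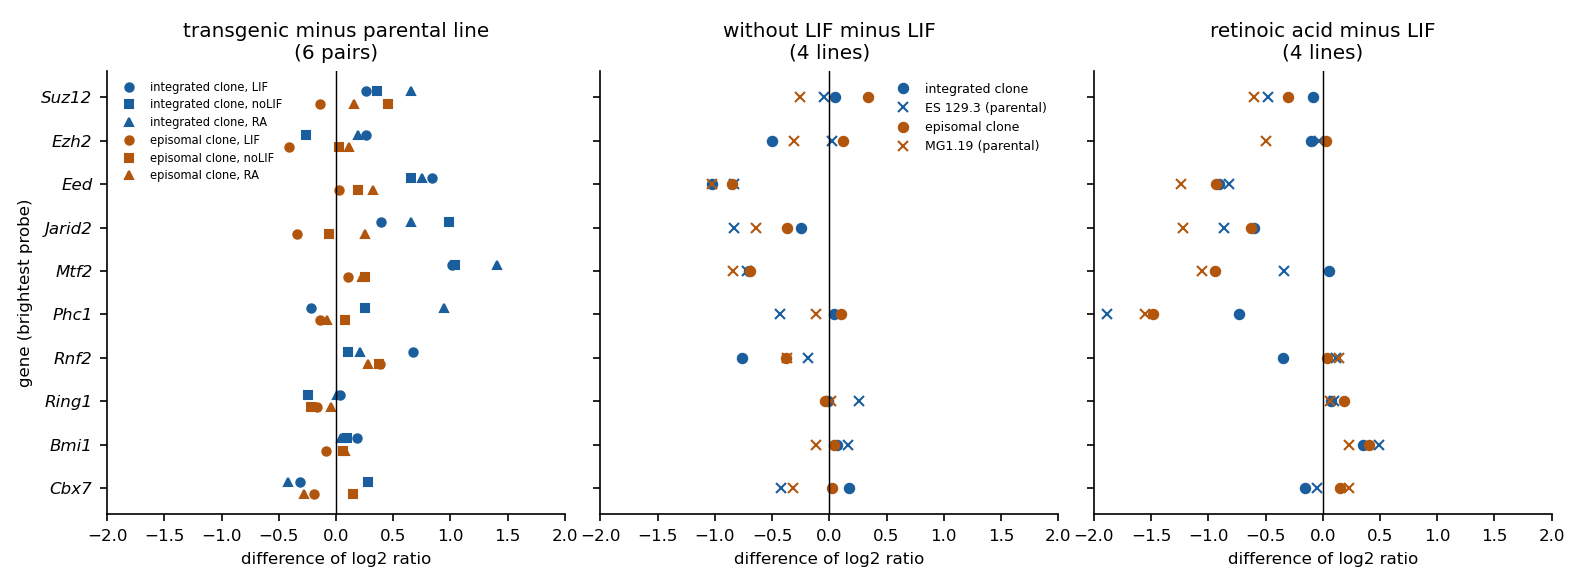
Differences of log2 ratio (x) for the 10 members by their brightest probe (y) in the Nanog experiment. The left panel gives transgenic minus parental line in each of 6 pairs, the middle panel no LIF minus LIF and the right panel RA minus LIF in each of 4 lines, with 1 array on each side of a difference. Blue marks the clone labelled integrated and ES 129.3, orange the clone labelled episomal and MG1.19, and crosses mark parental lines. Mtf2 and Eed lie to the right of 0 in every pair of the clone labelled integrated, and Eed lies to the left in all 4 lines in both media.

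The media were compared within the 4 lines. Eed fell without LIF, and Phc1, Eed and Jarid2 fell with RA, while no member rose. Without LIF 1 of 10 members fell (0.520% of all genes) and 0 rose (0.499%). With RA 3 of 10 fell (1.21%) and 0 rose (4.65%), and the median change of the 10 members was -0.26, with -0.01 over all genes. Both contrasts share the arrays in LIF.

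Eed was lower without LIF in every line, by 0.84 in ES 129.3, 1.02 in MG1.19, 0.85 in the clone labelled episomal and 1.03 in the clone labelled integrated. The fitted change was -0.94 (SE 0.07, 1.91-fold, limma adjusted p = 0.00218). With RA it was -0.98 (SE 0.07, limma adjusted p = 0.000158), and all 4 lines again lay between -1.24 and -0.82. Its call held under every alternative run for both media.

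Phc1 fell with RA. On probe 2 the RA change was -1.89 in ES 129.3, -1.55 in MG1.19, -1.49 in the clone labelled episomal and -0.73 in the clone labelled integrated, with a fitted change of -1.42 (SE 0.16, 2.67-fold, limma adjusted p = 0.000933). Probe 1 gave -0.70 (SE 0.11, limma adjusted p = 0.00453), about 0.71 less on the log2 scale than probe 2. The probes disagreed on the order of the lines. On probe 1 the change was -1.12 in the clone labelled integrated, -0.75 in MG1.19, -0.55 in the clone labelled episomal and -0.40 in ES 129.3. Without LIF the change of probe 2 was -0.10 with an interval of -0.47 to 0.27. The RA and no-LIF changes of Phc1 were not tested against each other.

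Jarid2 was lower with RA in all 4 lines, by between 0.60 and 1.22, and its fitted change was -0.83 (SE 0.12, limma adjusted p = 0.00219). Without LIF it was -0.52 (SE 0.12, limma adjusted p = 0.0633) and not called. Rnf2 was also lower without LIF in all 4 lines, by a fitted change of -0.43 (SE 0.09, limma adjusted p = 0.0548) that was not called. Mtf2 changed by -0.74 (SE 0.18, limma adjusted p = 0.0833) without LIF on probe 2, lower in all 4 lines. With RA the lines disagreed on Mtf2: 0.06 in the clone labelled integrated, -0.34 in ES 129.3, -0.94 in the clone labelled episomal and -1.06 in MG1.19. Without the clone labelled integrated the RA change of Mtf2 was -0.78 and was called (adjusted p = 0.0198).

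Bmi1 was higher with RA in all 4 lines, by 0.37 (SE 0.05, limma adjusted p = 0.00211), below 1.5-fold, and Suz12 was -0.37 (SE 0.10, limma adjusted p = 0.0445), also below it. Ezh2, Rnf2, Ring1 and Cbx7 had RA changes of -0.15, -0.01, 0.11 and 0.04, and their intervals exclude a fall of 1.5-fold in these ratios. Of 25 other Polycomb genes 6 rose and 2 fell with RA, against 4.65% and 1.21% of all genes. The primitive endoderm markers moved with RA as well, from a mean log2 ratio between 0.02 and 0.58 with LIF to between 0.90 and 2.29, and the trophectoderm markers from between -1.28 and -0.23 to between 0.04 and 1.09. The ES cell markers fell in 3 of 6 genes (median -0.71), Pou5f1 itself fell on both probes (-1.38 and -0.95), and 2 of 5 fibroblast markers rose (median 0.54). On its brighter probe Pou5f1 went from 2.77 with LIF to 2.41 with RA in the clone labelled integrated. It went from 2.16 to 0.49 in ES 129.3, 2.14 to 0.82 in MG1.19 and 2.81 to 0.65 in the clone labelled episomal. The part of these markers in the changes of Eed, Phc1 and Jarid2 was not tested.

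Promoters of all 10 members were found in RefSeq (GRCm38.p6), with 12 windows of 250 bases before to 50 after a start. Both strands were searched for the octamer ATGCAAAT, the Sox motif CATTGTT and the E2F motif TTTCCCGC. None of the 12 windows held the octamer or the Sox motif, which 1.74% and 3.78% of all 32851 promoter windows hold. The E2F motif, held by 1.07% of all windows, was found once, in that of Suz12 on chromosome 11, at 219 bases before the start. The stretch around it (GRCm38.p6, chr11:79992861-79992920, plus strand, motif in capitals) reads as follows.
Suz12 promoter: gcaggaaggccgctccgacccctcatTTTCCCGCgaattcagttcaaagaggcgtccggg
A match describes these letters only. Of the members that fell on the late arrays, the window of Suz12 held 41 CG dinucleotides and that of Ezh2 31, while those of Eed and Phc1 held 17 and 9. Jarid2 had 24 and 23 in its 2 windows, Rnf2 30 and Ring1 37, with a median of 7 over all windows.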

How the data were processed

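RNA was measured on 40 two-colour arrays of 3 NIA designs (late, early and Nanog). The deposited scanner tables hold spot intensity values of both channels from Agilent Feature Extraction 7.5.1, and the authors' deposited value tables hold log10 values of the sample channel after their own normalization, in 1 column with codes for missing values (treated as a score). Here intensities were corrected with normexp (offset 50) and loess within arrays, and log2(Cy3/Cy5) was averaged over spots of a probe. Scanner outlier spots were left out. Median Cy3 ran from 531 to 776, and the number of arrays limits the precision. Each probe was fitted with limma 3.58.1 (R 4.3.3), with p adjusted by Benjamini-Hochberg over all gene probes, and called at an adjusted p of 0.05 and 1.5-fold, the thresholds of the study's methods. Scripts were tested on simulated data. Intervals are limma's 95% intervals. Nanog contrasts kept the pair, and media contrasts the line, as a block.

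A gene counted as its brightest probe. Probes were named through accessions, identical probes and the study's tables (11722, 16920 and 17259 named on the late, early and Nanog arrays). The titles give ZHBTc4 with Tet for the late arrays, although their protocol describes another construct, and the design text names other parental lines than the labels used here. The genes and lists were chosen with earlier results of these data known. Named genes were all 10 members, up to 6 of each further list with the largest change among those called at some late time, and the nearest pattern to each called member. Alternatives were other signals and scalings, a filter on dim probes, other error variances, a replicate block, other probes per gene, and left-out arrays, pairs or lines.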

Additional observations from a re-analysis of the deposited data

Results flagged for a closer look

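Mtf2 differed between both Nanog clones by the test of that difference itself, by 0.96 on probe 2 and 0.95 on probe 1 (integrated minus episomal, in log2 units). Its difference from the parental line was 1.15 in the clone labelled integrated and 0.19 in the clone labelled episomal on probe 2. The 24 hr change of Phc1 probe 1 differed between the experiments by 0.41 (late minus early). Of 39 sets of 4 or 6 paired differences of the members in the Nanog experiment, 0 held a value that stood apart from the rest by Dixon's criterion, and chance marks about 1 in 20 sets.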

How the results depend on the processing

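Of 618 values of called member changes recomputed under the alternatives other than the F test, all 618 kept their direction and 23 lost the call (7 of 475 late, 7 of 71 early, 8 of 30 for the clone labelled integrated, 0 of 10 without LIF, 0 of 30 with RA and 1 of 2 for the difference of both clones). The F test gives no value for a single time. It is therefore not in these numbers, nor among the alternatives counted for single genes, and with it 0 early members were called. The number of late members that fell at some time stayed within 1.5 times of 5 under every alternative, although at 72 and 96 hr alone only 3 fell in the authors' normalized values. On the early arrays it was 5 with the correction of Cy5 bleaching, 7 with scaling between arrays, 6 with Cy3 only and 0 with the F test of the study's methods, and scaling between arrays turned Mtf2 and Cbx7 at 6 hr to called falls of -1.25 and -1.22. The other Polycomb genes that fell on the early arrays were 0 with the correction of Cy5 bleaching, 6 with scaling between arrays and 0 with the F test, which also gave 0 that rose. On the late arrays 1 of them fell with the values the authors normalized. Of the H3K27 demethylases and Trithorax genes that rose late there was 1 with the correction of Cy5 bleaching and 0 with Cy3 only, and between 1 and 2 without single arrays (1 without array 1 or 2 at 0 hr or array 3 at 120 hr). Leaving out 1 medium gave between 0 and 3 members that rose in the clone labelled integrated, with 0 without the LIF pair. Leaving out 1 line gave between 0 and 2 other Polycomb genes that fell with RA. The clone difference was called for 0 members with the values the authors normalized and 2 with the correction of Cy5 bleaching, and the late minus early difference for 2 with the values the authors normalized. The cause was not tested. The replicate numbers did not pair the samples: deviations of same-numbered arrays correlated by 0.151 on average on the late arrays (from -0.430 to 0.748) and by 0.114 on the early arrays (from -0.136 to 0.337), and with the replicate number as a block 5 late and 3 early members fell, as without it. Each slide held 1 array and no scan batch held several groups of 1 experiment, so the slide or scan block was not run. Within an experiment a change between groups therefore cannot be told apart from the scan batch. Alternatives for each clone alone and for the other lists were added after the data were seen. With 2 arrays a group, early falls near 1.5-fold are at the edge of what these arrays can call.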
